A study of Sus scrofa with 9 samples.

Results

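The genes described here are 45 genes of the ATF4 stress response and of amino acid supply, followed in cultured pig cells before and after insulin. They were taken by gene symbol from a list named for their function, with no threshold on their values, and fall into 4 roles: 8 stress genes, 16 enzymes of amino acid synthesis and one-carbon metabolism, 9 amino acid transporters and 12 cytosolic tRNA synthetases. Of the 45 genes, 43 could be paired with values among the 30477 gene IDs measured, and 42 of these were among the 11063 genes tested. ATF4 itself and GLUL (glutamine synthetase) could not be matched and were not analysed here. SHMT1, the cytosolic serine hydroxymethyltransferase, stayed below the expression filter and was not tested, with FPKM (sequenced fragments relative to gene length and to all mapped fragments) of 0.84 to 1.28 at 0 h, 0.74 to 0.82 at 48 h and 0.39 to 0.67 at 72 h.

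ATF4 is the transcription factor through which cells answer a shortage of amino acids and several other stresses. Stress-sensing kinases phosphorylate the initiation factor eIF2, which lowers general translation but favours translation of ATF4, so that much of the control lies above the RNA level measured here. ATF4 and its partner factors then raise genes that import amino acids, make them, and load them onto tRNA, while targets such as DDIT3 and TRIB3 take part in the decision between recovery and cell death. Insulin and amino acids also feed the same supply genes through growth signalling, and fibroblasts need glycine, proline and serine to make collagen.

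The cells were porcine embryonic fibroblasts (PEF), connective tissue cells grown from pig embryos, thawed and cultured before use. The 3 groups were untreated cells taken as controls at 0 h, and cells treated with insulin for 48 h or for 72 h, with 3 libraries in each group. The submitters call the 3 libraries of a time biological replicates, and how many PEF lines or embryos they represent was not given in the sources used here, nor were the insulin dose and the medium. Since no untreated cells of the later times were analysed here, insulin and time in culture cannot be told apart in any comparison with 0 h.

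The read depth behind these FPKM values is unknown. The FPKM sum ran from 487858 to 497665 at 0 h, from 524992 to 563656 at 48 h and from 505022 to 525471 at 72 h, and 10761 to 10833 genes per library reached an FPKM of 1. The lowest correlation between libraries of 1 time was 0.990 and the highest between libraries of different times was 0.987, on the log2(FPKM + 1) scale. Of 9 fibroblast markers, 8 had values (THY1 had none), and their summed FPKM was 19642 to 20523 at 0 h, 17786 to 18662 at 48 h and 19752 to 20305 at 72 h. Nearly all of that sum came from COL1A1, COL1A2, COL3A1 and VIM, and it hides shifts of single markers. Mean FPKM at the 3 times was 12.7, 33.8 and 48.3 for LUM, 9.34, 26.9 and 36.4 for PDGFRA, and 26.5, 46.9 and 72.2 for DCN. The 3 collagen genes were lowest at 48 h, with COL1A2 at 5680, 4276 and 4953. Summed FPKM of 4 epithelial markers with values was 5.56 to 6.77, 12.2 to 13.2 and 9.11 to 10.4 at the 3 times, with EPCAM and CDH1 below 1 in every library. Summed FPKM of 4 endothelial markers was 0.56 to 0.99, 0.77 to 1.09 and 1.04 to 1.16, with CDH5, KDR and TEK below 1 throughout, and each of 4 immune markers was below 1 in every library. Summed FPKM of 3 skeletal muscle markers was 1423 to 1454, 858 to 938 and 790.1 to 993.7, nearly all of it from DES, with MYOD1 below 1. Summed FPKM of 3 neural markers was 62.0 to 70.5, 133.7 to 161 and 127 to 148, nearly all of it from TUBB3, with SOX10 below 1. The part of these shifts in the results below was not tested, and in bulk RNA fewer cells of a type and less RNA per cell cannot be told apart.

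Before insulin the genes spanned a wide range of FPKM, from SHMT1 at a mean of 1.003 to PSAT1 at 343.9, with a median of 62.8, and 15 of the 43 reached 100 FPKM. The synthetases were the role with the highest median FPKM at 0 h, 104.8, from LARS1 at 37.5 to GARS1 at 312. Libraries of 1 time were close to each other for these genes: the median coefficient of variation was 2.76%, 5.38% and 4.27% at the 3 times.

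The comparison of each time with 0 h asks which of these genes differed after insulin. A gene was called where limma, fitted over all 11063 tested genes on log2(FPKM + 1), gave a Benjamini-Hochberg adjusted p below 0.05. At 48 h, 12 of the 42 tested genes rose, where 27.6% of all tested genes did, and 13 fell, where 22.4% did. Together 59.5% were called, against 49.9% of all tested genes, and the median log2 change was -0.07 against 0.02 over all tested genes. At 72 h, 7 rose (23% of all tested genes did) and 12 fell (22.5% did), or 45.2% against 45.5%, with a median of -0.06 against -0.01. The comparisons at 48 h and 72 h share the 0 h libraries. From 48 h to 72 h, 5 rose (9.17% of all tested genes did) and 7 fell (16.3% did), or 28.6% against 25.4%. The share of these genes called was therefore near the background at 72 h and between the insulin times and somewhat above it at 48 h, a difference that was not tested. Single libraries weighed on these counts: without 48 h replicate 2, only 6 genes rose at 48 h, and between the insulin times 3 rose and 3 fell.

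Most of the calls were small. A called log2 change of at least 0.5 in either direction was seen for 7 genes at 48 h, against 17.8% of all tested genes, for 5 at 72 h against 18.2%, and for 1 between 48 h and 72 h against 6.18%. Groups did not overlap for 14 genes upwards and 17 downwards at 48 h, beside 32.4% and 27.6% of all tested genes, or 60% in all. At 72 h they did not overlap for 8 genes upwards and 18 downwards, beside 28.1% and 30.4%, or 58.6% in all. Between 48 h and 72 h the groups did not overlap for 6 genes upwards and 8 downwards, beside 14.9% and 23.9%, or 38.9% in all. Over the 3 times together, 26 of the 42 genes passed limma's F-test, against 60.6% of all tested genes.

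The split into higher and lower depended on how the libraries were scaled. FPKM sums were higher at 48 h than at 0 h, and setting all sums equal shifted the median log2 change of all tested genes by -0.12 in that comparison. The 12 higher and 13 lower genes at 48 h then became 5 and 23, and 5 and 20 with equal sums over protein-coding genes, and 7 and 19 after quantile normalization. At 72 h the 7 higher and 12 lower genes became 6 and 16, 6 and 13, and 8 and 17 in the same order. Between 48 h and 72 h the 5 higher and 7 lower genes became 7 higher and 3 lower under each of these scalings. Over all tested genes, the 3048 higher and 2476 lower calls at 48 h became 1959 and 3691, 2130 and 3408, and 2665 and 2747. At 72 h the 2542 higher and 2487 lower calls over all tested genes became 2159 and 2927, 2298 and 2728, and 2616 and 2486. From 48 h to 72 h the 1014 higher and 1800 lower calls over all tested genes became 1426 and 1127, 1426 and 1164, and 1312 and 1387. Calls that held under each of 17 alternative settings numbered 14 of 25 genes at 48 h, 15 of 19 at 72 h and 6 of 12 between the insulin times. At 48 h these were ATF5, DDIT3, NUPR1, PHGDH and SHMT2 upwards and SESN2, PPP1R15A, MTHFD1, MTHFD2, CTH, SLC38A1, AARS1, EPRS1 and IARS1 downwards. At 72 h they were ATF5, DDIT3, NUPR1, PHGDH, SHMT2 and SLC6A9 upwards and ASNS, MTHFD1, MTHFD1L, MTHFD2, CTH, SLC7A1, SLC7A5, EPRS1 and MARS1 downwards. Between the insulin times they were NUPR1, PPP1R15A and IARS1 upwards and DDIT3, SHMT2 and CTH downwards.

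**Figure D1:**
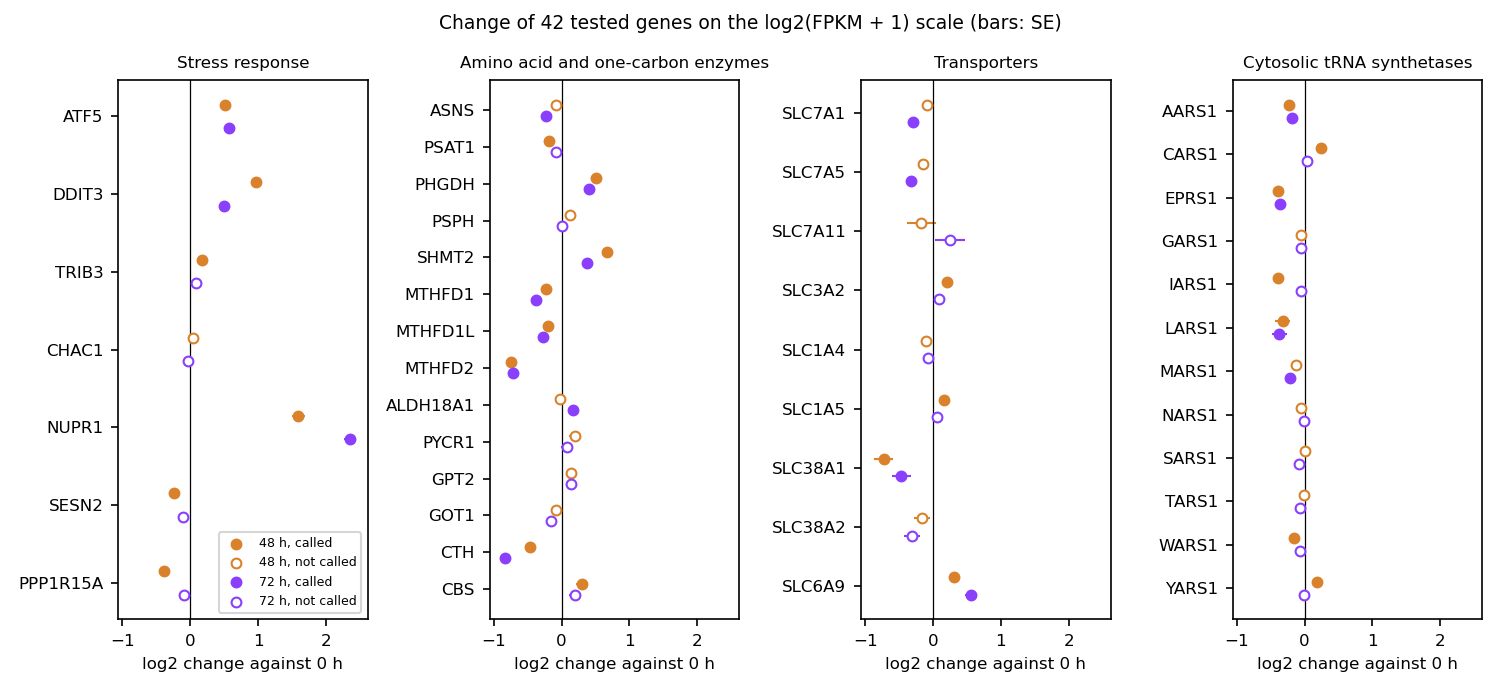
Log2 change of the 42 tested genes against 0 h on the log2(FPKM + 1) scale, in 4 panels by role, with bars showing the standard error; filled points were called by limma and open points were not. NUPR1 stands far to the right of all other genes at both times, with 1.60 at 48 h and 2.36 at 72 h, and most synthetase points lie left of 0.

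Among the stress genes, the nuclear protein NUPR1, the transcription factor DDIT3 and the factor ATF5 rose at both times after insulin, and each of these calls held under the 17 alternatives. TRIB3, a pseudokinase that restrains ATF4 and AKT, rose by 0.17 at 48 h (SE 0.06, adjusted p = 0.0380, limma) but kept that call under only 9 of the 17 alternatives. The translation regulator PPP1R15A and the stress sensor SESN2 fell at 48 h, under every alternative. In all, 4 of 7 tested stress genes rose and 2 fell at 48 h, beside 27.6% and 22.4% of all tested genes. At 72 h 3 rose and 0 fell, beside 23% and 22.5%, and limma's unadjusted p was also below 0.05 for 0 genes in the lower direction. Together 85.7% and 42.9% were called at the 2 times, beside 49.9% and 45.5% of all tested genes.

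NUPR1 is a small chromatin-associated protein that is strongly induced by cell stress. Its FPKM was 131, 129 and 128 in the 0 h libraries, 463, 366 and 359 at 48 h, and 713, 617 and 676 at 72 h. The 3 groups did not overlap, and every 72 h library stood above every 48 h library. Mean FPKM of NUPR1 was 129.5 ± 1.52, 396 ± 58.0 and 669 ± 48.3 (SD, n = 3) at the 3 times, 3.06 times the control mean at 48 h and 5.16 times at 72 h. NUPR1 rose by 1.60 on the log2 scale at 48 h (SE 0.09, adjusted p = 1.06e-06, limma), by 2.36 at 72 h (SE 0.09, adjusted p = 2.19e-08) and by 0.76 from 48 h to 72 h (SE 0.09, adjusted p = 3.01e-04). NUPR1 lies on chromosome 3 of Sscrofa11.1 at 18402781 to 18404411 in the RefSeq table, and the long noncoding RNA LOC110260087 covers all 1631 bases of it, so reads of these genes may not have been told apart.

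DDIT3 encodes CHOP, a transcription factor that ATF4 induces and that can promote cell death. Its FPKM was 48.0, 46.0 and 40.2 at 0 h, 90.3, 90.02 and 84.0 at 48 h, and 60.2, 63.9 and 65.7 at 72 h. No 2 groups overlapped: the 48 h libraries were the highest and the 72 h libraries lay between them and the controls. The log2 change was 0.97 at 48 h (SE 0.07, adjusted p = 4.32e-06, limma), 0.49 at 72 h (SE 0.07, adjusted p = 2.46e-04) and -0.47 from 48 h to 72 h (SE 0.07, adjusted p = 0.00120). DDIT3, on chromosome 5 at 22785441 to 22789867, shares 69 bases with its neighbour MARS1, a synthetase of the same list at 22752405 to 22785509 whose mean FPKM was below that of the controls at both times. From 48 h to 72 h NUPR1 and DDIT3 thus moved in opposite directions, and NUPR1 FPKM over DDIT3 FPKM was 2.74 to 3.19 at 0 h, 4.07 to 5.12 at 48 h and 9.66 to 11.8 in the 72 h libraries.

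ATF5 is a transcription factor related to ATF4 and, like it, is translated preferentially under stress. Its FPKM was 45.0, 45.5 and 43.6 at 0 h, 73.6, 59.3 and 61.4 at 48 h, and 67.0, 70.9 and 63.7 at 72 h. All 6 insulin libraries stood above the controls, and the libraries of the insulin times overlapped. For ATF5 the log2 change was 0.52 at 48 h (SE 0.08, adjusted p = 4.68e-04, limma) and 0.58 at 72 h (SE 0.08, adjusted p = 1.83e-04). ATF5, on chromosome 6 at 54945067 to 54950142, overlaps IL4I1 and NUP62, whose mean FPKM moved in the other direction, from 13.9 to 10.2 and 7.93 and from 22.2 to 15.7 and 12.1.

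PPP1R15A, known as GADD34, is the stress-induced subunit that directs removal of phosphate from eIF2. Its mean FPKM was 73.0 ± 2.22, 55.5 ± 4.59 and 68.7 ± 3.28 (SD, n = 3) at the 3 times, and the 48 h libraries stood below both other groups. It fell by 0.39 on the log2 scale at 48 h (SE 0.07, adjusted p = 0.00104, limma) and rose by 0.31 from 48 h to 72 h (adjusted p = 0.00974), while the value at 72 h against 0 h, -0.09, was not called (95% interval -0.24 to 0.07). SESN2, a leucine sensor of the mTORC1 pathway, fell by 0.24 at 48 h (SE 0.05, adjusted p = 0.00443), and its change of -0.11 at 72 h was not called (interval -0.23 to 0.01). CHAC1, an enzyme that degrades glutathione and a widely used readout of ATF4 activity, was not called at either time, with log2 changes of 0.04 at 48 h (95% interval -0.12 to 0.21) and -0.03 at 72 h (interval -0.19 to 0.14) and mean FPKM of 90.5 ± 3.36, 93.4 ± 7.86 and 88.9 ± 5.94 (SD, n = 3) at the 3 times. The 7 genes of this role therefore held calls in both directions at 48 h. Their summed FPKM was 453 ± 12.2, 768 ± 75.4 and 1027 ± 40.4 (SD, n = 3) at the 3 times, and without NUPR1 it was 324 ± 10.7, 372 ± 20.6 and 359 ± 9.20.

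**Figure D2:**
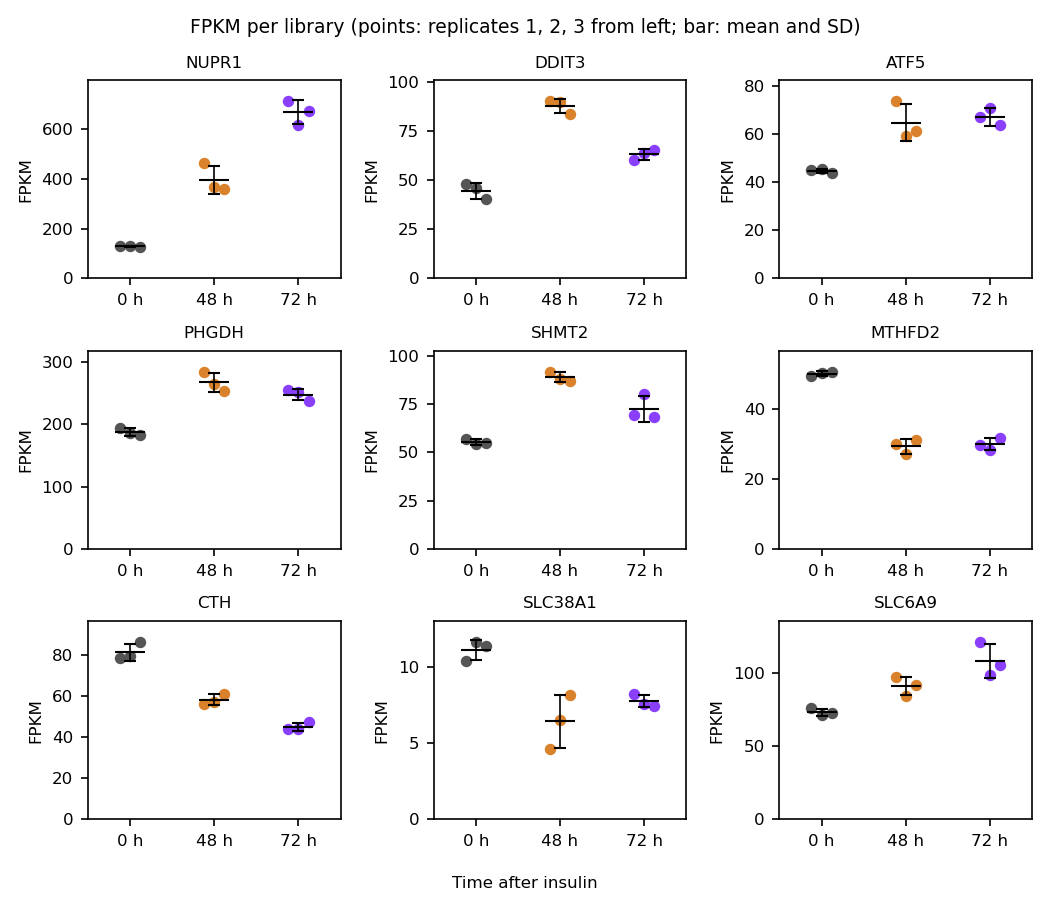
FPKM in each library for the 9 genes called with a log2 change of at least 0.5 in some comparison, with points for replicates 1, 2 and 3 and bars for the mean and SD of the 3 libraries at 0 h, 48 h and 72 h after insulin; every axis starts at 0. NUPR1 climbs at each time, DDIT3 and SHMT2 are highest at 48 h, MTHFD2 and CTH lie below the controls at both times, and the 48 h libraries of SLC38A1 are spread from 4.61 to 8.11.

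Among the enzymes, the entry step of serine synthesis and the mitochondrial serine hydroxymethyltransferase rose, while the folate enzymes next to it and the last step of cysteine synthesis fell. Of 14 tested enzymes, 3 rose and 5 fell at 48 h, beside 27.6% and 22.4% of all tested genes. Again 3 rose and 5 fell at 72 h, beside 23% and 22.5%. That was 57.1% called at each time, beside 49.9% and 45.5% of all tested genes. The median log2 change was -0.06 at 48 h and -0.04 at 72 h. With equal FPKM sums 2 enzymes rose and 8 fell at 48 h, and 2 rose and 6 fell at 72 h. Over all 11063 tested genes, that setting gave 1959 higher and 3691 lower at 48 h, and 2159 and 2927 at 72 h. Quantile normalization gave 4 enzymes higher and 6 lower at each time. Between the insulin times, 1 rose and 2 fell, or 21.4% called beside 25.4% of all tested genes.

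PHGDH catalyses the first and committed step of serine synthesis from glycolysis. Its FPKM was 195, 186 and 183 at 0 h, 284, 265 and 253 at 48 h, and 254, 251 and 238 at 72 h. All insulin libraries stood above all controls. PHGDH rose by 0.50 on the log2 scale at 48 h (SE 0.06, adjusted p = 8.29e-05, limma) and by 0.40 at 72 h (SE 0.06, adjusted p = 2.99e-04), and both calls held under every alternative. The next enzymes of the same chain had other values. PSAT1, the transaminase of the second step, fell by 0.18 at 48 h (adjusted p = 0.0191) with mean FPKM of 344 ± 9.52, 303 ± 9.86 and 323 ± 15.4 (SD, n = 3), a call that was lost when 0 h replicate 1, 0 h replicate 3 or 48 h replicate 2 was left out. PSPH, the phosphatase that releases serine, had a log2 change of 0.12 at 48 h that was not called (adjusted p = 0.159; 95% interval -0.03 to 0.26).

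SHMT2 splits serine into glycine and a one-carbon unit in mitochondria. Its FPKM was 57.1, 54.2 and 54.9 at 0 h, 91.7, 87.9 and 86.8 at 48 h, and 69.2, 80.3 and 68.2 at 72 h. The 3 groups did not overlap, with the 48 h libraries highest. The log2 change was 0.67 at 48 h (SE 0.07, adjusted p = 3.01e-05, limma), 0.38 at 72 h (SE 0.07, adjusted p = 9.93e-04) and -0.29 from 48 h to 72 h (SE 0.07, adjusted p = 0.0115). SHMT2, on chromosome 5 at 22535780 to 22540322, overlaps NXPH4 over 835 bases, and mean FPKM of NXPH4 was 1.05, 1.96 and 2.25 at the 3 times.

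MTHFD2, the mitochondrial dehydrogenase and cyclohydrolase that handles the one-carbon unit SHMT2 releases, moved the other way. Its FPKM was 49.2, 50.1 and 50.5 at 0 h, 29.95, 26.9 and 31.0 at 48 h, and 29.75, 28.15 and 31.7 at 72 h. The controls stood far above all insulin libraries, and the insulin times overlapped each other. MTHFD2 fell by 0.75 on the log2 scale at 48 h (SE 0.07, adjusted p = 1.28e-05, limma) and by 0.72 at 72 h (SE 0.07, adjusted p = 9.06e-06), to 0.587 and 0.598 times the control mean. Its cytosolic relative MTHFD1 fell by 0.24 at 48 h (adjusted p = 0.00678) and by 0.38 at 72 h (adjusted p = 3.58e-04). MTHFD1L, the mitochondrial enzyme that turns formyl-folate into formate, fell by 0.20 at 48 h (adjusted p = 0.0122) and by 0.28 at 72 h (adjusted p = 0.00186), and only the 48 h call was lost in an alternative, without 0 h replicate 2.

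CTH, which makes cysteine from cystathionine, was the member with the largest fall at 72 h. Its FPKM was 78.7, 79.6 and 86.4 at 0 h, 56.5, 57.45 and 61.3 at 48 h, and 44.3, 44.0 and 47.5 at 72 h. No 2 groups overlapped and the order was the reverse of that of NUPR1. The log2 change was -0.47 at 48 h (SE 0.06, adjusted p = 1.43e-04, limma), -0.84 at 72 h (SE 0.06, adjusted p = 1.44e-06) and -0.36 from 48 h to 72 h (SE 0.06, adjusted p = 0.00216), and each call held under every alternative. CTH, on chromosome 6 at 142454922 to 142486352, overlaps the pseudogene LOC106507651 over 2204 bases. CBS, which makes the cystathionine that CTH uses, rose by 0.29 at 48 h (SE 0.09, adjusted p = 0.0185), a call kept under 11 of 17 alternatives, and its change of 0.20 at 72 h was not called (adjusted p = 0.0868).

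ASNS makes asparagine and is among the best known ATF4 targets. Its FPKM was 74.3, 73.95 and 70.0 at 0 h, 72.3, 67.0 and 66.4 at 48 h, and 59.8, 59.0 and 66.4 at 72 h. The 48 h libraries overlapped both other groups, and the 72 h libraries stood below the controls. The change of -0.08 at 48 h was not called as deposited (SE 0.06, adjusted p = 0.288, limma; 95% interval -0.22 to 0.06), but was -0.22 with equal FPKM sums and -0.24 after quantile normalization, where it was called. At 72 h ASNS fell by 0.24 (SE 0.06, adjusted p = 0.0112), under every alternative.

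The remaining enzymes showed small or no called changes. ALDH18A1, which starts proline synthesis from glutamate, rose by 0.17 at 72 h (adjusted p = 0.0352, limma) and by 0.20 from 48 h to 72 h (adjusted p = 0.0303), kept under 10 and 12 of 17 alternatives. PYCR1, which completes proline synthesis in mitochondria, had a log2 change of 0.19 at 48 h (adjusted p = 0.0783; 95% interval 0.01 to 0.38). The transaminases GPT2 and GOT1, which make alanine and aspartate, were not called at any time, with log2 changes of 0.13 and -0.09 at 48 h and 0.14 and -0.15 at 72 h.

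Among the transporters, SLC6A9 rose at both times and SLC38A1 fell at both, while SLC7A5 and SLC7A1 fell at 72 h. Of 9 tested transporters, 3 rose and 1 fell at 48 h, 1 rose and 3 fell at 72 h, and 1 rose and 2 fell from 48 h to 72 h. That was 44.4%, 44.4% and 33.3% called, beside 49.9%, 45.5% and 25.4% of all tested genes. None of the 3 higher calls at 48 h held under equal FPKM sums, where 0 rose and 4 fell, beside 1959 and 3691 of all 11063 tested genes. After quantile normalization 0 rose and 2 fell. Between the insulin times, 1 rose and 0 fell under each of the 3 rescalings.

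SLC6A9 is GLYT1, a glycine importer. Its FPKM was 75.7, 71.1 and 72.5 at 0 h, 97.1, 84.5 and 91.7 at 48 h, and 121, 98.6 and 105 at 72 h. The 3 groups did not overlap, although the lowest 72 h library was close to the highest 48 h library. The log2 change was 0.31 at 48 h (SE 0.08, adjusted p = 0.00821, limma) and 0.55 at 72 h (SE 0.08, adjusted p = 2.29e-04), and 0.24 from 48 h to 72 h (SE 0.08, adjusted p = 0.0467). The call at 72 h held under every alternative, the call at 48 h under 14 of 17, being lost under each of the 3 rescalings, and the call between the insulin times under 9 of 17.

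SLC38A1 is SNAT1, a sodium-coupled importer of glutamine and other small neutral amino acids. Its FPKM was 10.3, 11.6 and 11.3 at 0 h, 4.61, 6.53 and 8.11 at 48 h, and 8.19, 7.56 and 7.44 at 72 h. All insulin libraries stood below the controls, and the 48 h libraries were widely spread, with a coefficient of variation of 27.3%. SLC38A1 fell by 0.73 on the log2 scale at 48 h (SE 0.14, adjusted p = 0.00187, limma), under every alternative, and by 0.47 at 72 h (SE 0.14, adjusted p = 0.0199), under 12 of 17. It overlaps the long noncoding RNAs LOC106510388 and LOC110260814 on chromosome 5. Its neighbour SLC38A2 (SNAT2), the amino acid-responsive member of the same family, had a log2 change of -0.17 at 48 h (adjusted p = 0.272) and -0.32 at 72 h (adjusted p = 0.0518; 95% interval -0.58 to -0.05). Neither was called as deposited, and the 72 h value was called under 7 of 17 alternatives.

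The partners of the heavy chain SLC3A2, which carries several light chains to the cell surface, are described next. SLC7A5 (LAT1), its light chain for leucine and other large neutral amino acids, had a log2 change of -0.14 at 48 h that was not called (adjusted p = 0.0556, limma) and fell by 0.32 at 72 h (SE 0.06, adjusted p = 9.29e-04), with mean FPKM of 170.0 ± 8.20, 154 ± 3.74 and 136 ± 5.72 (SD, n = 3). The RefSeq table gives the entry for SLC7A5 as a long noncoding RNA, so which transcripts its FPKM covers was not settled here. SLC3A2 rose by 0.20 at 48 h (adjusted p = 0.0358), a call kept under 8 of 17 alternatives, and 0.03 was its value after quantile normalization. SLC7A11 (xCT), the cystine light chain, was the most variable transporter, at 10.02 to 12.1 FPKM at 0 h, 6.38 to 13.8 at 48 h and 9.99 to 15.02 at 72 h. It was not called, and the 95% intervals of its log2 change, -0.66 to 0.31 at 48 h and -0.23 to 0.74 at 72 h, allow sizeable changes either way.

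SLC7A1 (CAT1), the arginine and lysine importer that stands outside the heavy chain family, fell by 0.30 at 72 h (SE 0.06, adjusted p = 0.00253, limma), under every alternative. SLC1A5 (ASCT2), a glutamine exchanger, rose by 0.16 at 48 h (adjusted p = 0.0368), but this value turned to -0.03 after quantile normalization. SLC1A4 (ASCT1), which exchanges serine and alanine, was not called at any time, with -0.11 at 48 h and -0.08 at 72 h. Summed FPKM over the 9 transporters was 810.2 ± 16.5, 845 ± 26.4 and 805 ± 21.7 (SD, n = 3) at the 3 times.

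The cytosolic tRNA synthetases load amino acids onto tRNA for translation. More of the 12 listed ones fell than rose in the comparisons with 0 h. Of these 12, 2 rose and 5 fell at 48 h, beside 27.6% and 22.4% of all tested genes. At 72 h 0 rose and 4 fell, beside 23% and 22.5%, and limma's unadjusted p was below 0.05 for 0 genes in the higher direction. Together 58.3% and 33.3% were called at the 2 times, beside 49.9% and 45.5% of all tested genes. The median log2 change was -0.09 at 48 h and -0.07 at 72 h. Under the 3 rescalings, 0 rose at 48 h and 7 to 9 fell. Of all 11063 tested genes, 1959 to 2665 rose and 2747 to 3691 fell at 48 h under the same rescalings. Their summed FPKM was 1699 to 1708 at 0 h, 1557 to 1612 at 48 h and 1577 to 1606 at 72 h, so that all insulin libraries lay below all controls. The other cytosolic synthetases did not share this split: of 10 such genes and scaffold genes, described below, 6 rose and 1 fell at 48 h as deposited. Of these 10, 1 to 2 rose and 2 fell under the 3 rescalings.

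EPRS1, the bifunctional glutamate and proline synthetase, fell at both times, by 0.39 at 48 h (SE 0.06, adjusted p = 2.70e-04, limma) and by 0.36 at 72 h (SE 0.06, adjusted p = 3.44e-04), with mean FPKM of 103 ± 2.02, 78.3 ± 2.996 and 79.8 ± 3.71 (SD, n = 3). AARS1, the alanine enzyme, fell by 0.23 at 48 h (adjusted p = 0.00371) and by 0.18 at 72 h (adjusted p = 0.0129). LARS1, which loads leucine and also takes part in leucine sensing, fell by 0.33 (adjusted p = 0.0333) and 0.37 (adjusted p = 0.0196), and each call was kept under 13 of 17 alternatives. The isoleucine enzyme IARS1 moved both ways. It fell by 0.39 at 48 h (SE 0.08, adjusted p = 0.00198) and rose by 0.34 from 48 h to 72 h (SE 0.08, adjusted p = 0.00956), with mean FPKM of 107 ± 1.40, 81.5 ± 9.53 and 103 ± 4.31 (SD, n = 3).

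The methionine enzyme MARS1 fell by 0.22 at 72 h (SE 0.05, adjusted p = 0.00651, limma), and its change of -0.13 at 48 h was not called (adjusted p = 0.0647). The tryptophan enzyme WARS1 fell by 0.15 at 48 h (adjusted p = 0.0289), kept under 12 of 17 alternatives. The cysteine enzyme CARS1 and the tyrosine enzyme YARS1 were the only 2 synthetases of the 12 to rise at 48 h, by 0.24 (adjusted p = 0.0119) and 0.18 (adjusted p = 0.0269), and neither call was kept under equal FPKM sums. Both fell from 48 h to 72 h, by 0.20 (adjusted p = 0.0467) and 0.19 (adjusted p = 0.0366), calls kept under 5 and 7 of 17 alternatives and under none of the 3 rescalings. The glycine, asparagine, serine and threonine enzymes GARS1, NARS1, SARS1 and TARS1 were not called in any comparison. Among the 5 synthetases not called at 48 h the log2 changes ran from -0.13 to 0.01, with 95% intervals within -0.24 to 0.13, and among the 8 not called at 72 h from -0.08 to 0.04, within -0.22 to 0.19.

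**Figure D3:**
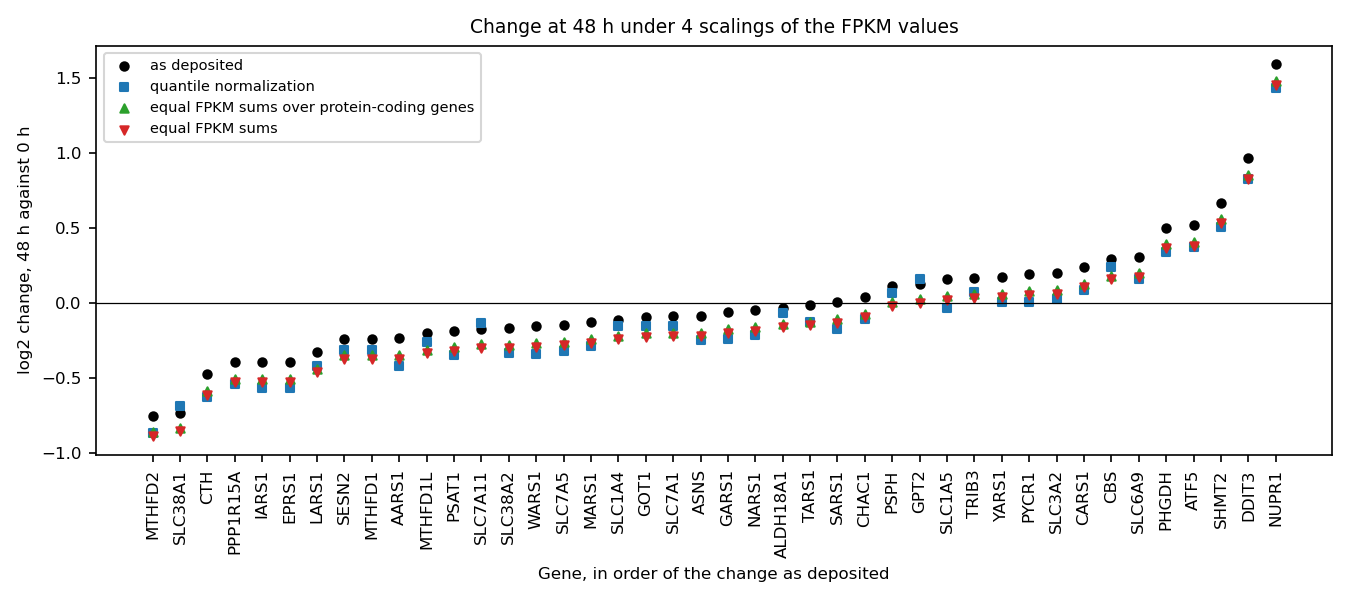
Log2 change of each tested gene at 48 h against 0 h, in order of the change as deposited, under the deposited FPKM values and under 3 rescalings of the libraries. The points with equal FPKM sums mostly lie below the deposited ones by about the same step. After quantile normalization the step differs between genes. SARS1, near 0 as deposited, lies below 0 after rescaling, and SLC1A5 does so after quantile normalization. NUPR1, DDIT3, SHMT2, PHGDH and ATF5 stay above 0, and MTHFD2, SLC38A1 and CTH stay below it.

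Other genes of the pathway were examined as 5 lists chosen for their function. Their counts under a rescaling stand beside the counts over all tested genes under that rescaling, given above. The 10 tested genes among the other cytosolic synthetases and the scaffold of the multisynthetase complex (FARSB had no value) included 6 that rose and 1 that fell at 48 h, beside 27.6% and 22.4% of all tested genes, with a median of 0.21. Under the 3 rescalings 1 to 2 rose and 2 fell. At 72 h 2 rose and 2 fell (beside 23% and 22.5%), and from 48 h to 72 h 0 rose and 6 fell (beside 9.17% and 16.3%), with a median of -0.30 and unadjusted p below 0.05 (limma) for 0 upwards and 7 downwards. KARS1, for lysine, rose by 0.54 at 48 h (adjusted p = 1.16e-04) and by 0.39 at 72 h (adjusted p = 7.86e-04). RARS1, for arginine, fell by 0.23 (adjusted p = 0.00504) and 0.53 (adjusted p = 1.68e-05). The scaffold subunit EEF1E1 fell by 0.41 from 48 h to 72 h (adjusted p = 0.00994).

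Mitochondrial synthetases serve the ribosomes of that organelle. Of 16 tested genes (SARS2 was below an FPKM of 1 in every library), 1 rose and 4 fell at 48 h, and 1 rose and 4 fell at 72 h, or 31.2% called at each time beside 49.9% and 45.5% of all tested genes. With equal FPKM sums 1 rose and 6 fell at each time. Between the insulin times 0 rose and 3 fell, beside 9.17% and 16.3% of all tested genes, with unadjusted p below 0.05 (limma) for 1 upwards and 5 downwards. In that comparison 1 rose and 1 to 3 fell under the 3 rescalings. AARS2 fell by 0.51 at 48 h (adjusted p = 4.82e-04) and by 0.80 at 72 h (adjusted p = 1.46e-05), from a mean FPKM of 5.42 to 3.52 and 2.69. CARS2 rose by 0.66 at 48 h (adjusted p = 2.06e-04) and fell by 0.45 from 48 h to 72 h (adjusted p = 0.00533). Its cytosolic counterpart CARS1 had the same directions, but its 2 calls were kept under only 13 and 5 of 17 alternatives.

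**Figure D4:**
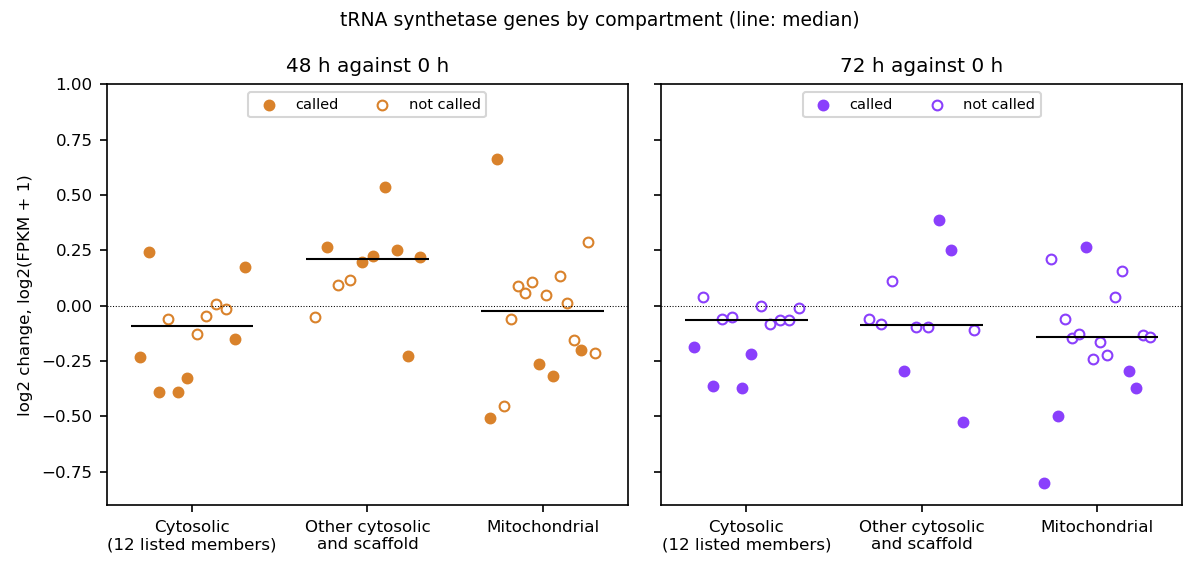
Log2 changes of tRNA synthetase genes against 0 h at 48 h and at 72 h, for the 12 listed cytosolic enzymes, the 10 other cytosolic genes and the 16 mitochondrial ones, with a line at each median; filled points were called by limma. The other cytosolic genes have the highest median at 48 h, 0.21, and a median of -0.09 at 72 h.

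The machinery upstream of ATF4 acts mainly through phosphorylation, which RNA does not show. Of 13 tested genes for eIF2 kinases, eIF2 and eIF2B subunits and their regulators (EIF2S3 and EIF2B1 had no values), 3 rose and 1 fell at 48 h, and 0 rose and 4 fell at 72 h, or 30.8% called at each time beside 49.9% and 45.5% of all tested genes, with unadjusted p below 0.05 (limma) for 0 upwards and 5 downwards. With equal FPKM sums the 48 h counts became 0 and 6. The interferon-induced kinase EIF2AK2 (PKR) fell by 0.31 at 72 h (adjusted p = 0.00982). From 48 h to 72 h 3 rose and 4 fell, or 53.8% called beside 25.4% of all tested genes. Under each of the 3 rescalings these counts became 3 and 0. Among those that rose, the amino acid-sensing kinase EIF2AK4 (GCN2) did so by 0.29 (adjusted p = 0.0218), kept under 13 of 17 alternatives. IMPACT, an inhibitor of its activation, rose by 0.34 (adjusted p = 0.0140), kept under 16 of 17.

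Partner factors of ATF4 and further genes known as its targets include regulators of growth and of further transcription. Of 18 tested genes (FGF21, SLC7A3 and SLC43A1 were below an FPKM of 1 in every library), 9 rose and 4 fell at 48 h, and 10 rose and 2 fell at 72 h, with medians of 0.17 and 0.31. Beside these counts stand 27.6% higher and 22.4% lower over all tested genes at 48 h, and 23% and 22.5% at 72 h. With equal FPKM sums, 6 rose and 4 fell at 48 h, and 10 rose and 2 fell at 72 h. The C/EBP factor CEBPD rose by 2.098 on the log2 scale at 48 h (SE 0.23, adjusted p = 4.88e-05, limma) and by 2.25 at 72 h (SE 0.23, adjusted p = 1.80e-05), from 21.4 ± 6.25 FPKM (SD, n = 3) to 92.8 ± 7.09 and 107 ± 34.3. DDIT4 (REDD1), an inhibitor of mTORC1 that glucocorticoids and low oxygen also induce, rose by 1.67 (adjusted p = 2.65e-05) and 1.52 (adjusted p = 2.97e-05). CEBPB, which pairs with ATF4 and DDIT3, rose by 0.80 (adjusted p = 0.0193) and 0.90 (adjusted p = 0.0112), and the first of these calls was kept under 13 of 17 alternatives. Its controls were widely spread, at 44.6, 95.7 and 51.9 FPKM, and overlapped both insulin groups. The lowest library was 89.7 at 48 h and 94.3 at 72 h.

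Of 12 tested genes among the other amino acid enzymes (GPT and PRODH had no values, ASS1 and ALDH1L1 were below an FPKM of 1), 3 rose and 1 fell at 48 h and 3 rose and 4 fell at 72 h, or 33.3% and 58.3% called, beside 49.9% and 45.5% of all tested genes. At 48 h the split became 3 and 3 after quantile normalization and 2 and 3 with equal FPKM sums of either kind. BCAT2, the mitochondrial transaminase of branched-chain amino acids, rose by 0.51 at 48 h (adjusted p = 0.00134, limma) and by 0.46 at 72 h (adjusted p = 0.00232). GCLC, the catalytic subunit for the first step of glutathione synthesis from cysteine, fell by 0.48 (adjusted p = 9.32e-04) and 0.32 (adjusted p = 0.00888).

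The 42 genes can be sorted by their calls in the 3 comparisons. The same classes were not counted over all tested genes, so their sizes are a description and not a trait of these genes. The largest class, 12 genes, was called in none of them: CHAC1, PSPH, PYCR1, GPT2, GOT1, SLC7A11, SLC1A4, SLC38A2, GARS1, NARS1, SARS1 and TARS1. The next class of 7 was lower at both times with no call between them (MTHFD1, MTHFD1L, MTHFD2, SLC38A1, AARS1, EPRS1 and LARS1), and CTH was lower in all 3 comparisons. Only NUPR1 and, less stably across settings as given above, SLC6A9 were higher in all 3, DDIT3 and SHMT2 were higher at both times and lower at 72 h than at 48 h, and ATF5 and PHGDH were higher at both times with no call between them. IARS1 and PPP1R15A were lower at 48 h than at 0 h and higher at 72 h than at 48 h.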

How the data were processed

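RNA from 9 libraries of porcine embryonic fibroblasts was measured, 3 each at 0 h, 48 h and 72 h, with groups from the labels. Libraries were rRNA-depleted and built with a NEBNext Ultra kit, per the labels' protocols. The authors deposited FPKM values in a separate file for each library, with an FPKM column per the file headers. Tools named in the submitters' processing notes, without roles, are RSEM 1.2.28, DESeq2, featureCounts 2.0.2 and HISAT2 2.1.0, with the build Sscrofa11.1, and use of strand in counting was not given in the sources used here. Overlapping genes may therefore share reads, and 13 of the 43 listed genes with values overlap another gene in the RefSeq table of Sscrofa11.1, which supplied positions.

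Genes that reached an FPKM of 1 in 3 or more libraries entered the tests (11063 genes, 9875 with a symbol). All 9 libraries entered a single fit of log2(FPKM + 1) in limma 3.58.1 (R 4.3.3), two-sided, with group as the only term and a trended prior variance, and p values were adjusted over all tested genes. Log2 changes are on the log2(FPKM + 1) scale, which understates changes of low genes, and adjusted p values in the text are from that fit. Standard errors of log2 changes had a median of 0.0883. Where nothing says that cultures were separate, p values measure only the spread between these libraries.

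The 45 genes, the 5 other lists and the markers were chosen with earlier results of these data known. Library values are given for DDIT3, ASNS and members called with an absolute log2 change of at least 0.5. At most the 3 called genes with the largest change are named from each other list. Values of some genes are not reported here. Alternatives were a pseudocount of 0.1, no filter, a mean FPKM of at least 5, quantile normalization, equal FPKM sums over all or protein-coding genes, library weights, the replicate number as a block, and each library left out; for the 5 other lists they were added after the data had been seen. On simulated data with 11063 genes for 48 h against 0 h, 85% of 100 genes changed by 0.5 and 99% of 100 changed by 1 were recovered, with 11 false calls. No other genes were changed there, the noise was normal and the libraries had no difference in scale. In the data 49.9% of genes were called at 48 h, so these figures need not hold for them.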

Additional observations from a re-analysis of the deposited data

How the results depend on the processing

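Of the log2 changes of single listed genes, 1930 values under an alternative kept their side of the threshold, among them values called in neither setting whose sign changed. A call was gained by 80, lost by 129, and 3 changed sign where 1 of the settings called them: SLC1A5 at 48 h to -0.029 after quantile normalization, and SARS1 at 48 h to -0.17 after quantile normalization and -0.13 with equal FPKM sums. With equal FPKM sums, 1959 genes were higher at 48 h and 1127 lower from 48 h to 72 h, against 1164 lower with equal sums over protein-coding genes. With library weights, whose estimation stopped before its tolerance was reached, 3823 genes were lower at 48 h, and 2408 were higher and 3348 lower from 48 h to 72 h. Of the listed genes at 48 h, 7 were higher after quantile normalization, 5 and 5 with the equal sums, and 23 (equal sums), 20 (over protein-coding genes) and 21 (library weights) were lower. From 48 h to 72 h, 3 were lower under each of the 3 rescalings, and 11 were higher and 13 lower with library weights. The cause was not tested beyond the scaling itself.

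Leaving out each library in turn gave 2503 to 3087 genes higher and 1939 to 2683 lower at 48 h, 2112 to 2724 and 1985 to 2713 at 72 h, and 589 to 1497 and 1138 to 2196 from 48 h to 72 h. Of the listed genes, 6 to 13 were higher and 10 to 14 lower at 48 h, 6 to 8 and 10 to 13 at 72 h, and 3 to 6 and 3 to 7 from 48 h to 72 h. The count of 6 came without 48 h replicate 2. From 48 h to 72 h, 3 listed genes were higher without 0 h replicate 1, 0 h replicate 3, 48 h replicate 2 or 72 h replicate 3. In the same comparison 3 were lower without 0 h replicate 1, 48 h replicate 2, 72 h replicate 1 or 72 h replicate 3, and 4 without 0 h replicate 2, 0 h replicate 3 or 48 h replicate 1. Over all genes, 589, 624 and 651 were higher there without 48 h replicate 2, 72 h replicate 1 and 72 h replicate 3, and 1138 were lower without 48 h replicate 2.

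Replicate numbers are shared across times, but deviations of same-numbered libraries correlated at -0.0709 to 0.193 over 9 pairs and of the others at -0.182 to 0.174 over 18, and the own number correlated best in 8 of 18 cases, so the numbers were not taken as pairs. With the replicate block, 12 listed genes were higher and 14 lower at 48 h, 7 and 13 at 72 h, and 5 and 7 between them; over all genes 3081 and 2551, 2602 and 2550, and 1094 and 1937. SLC38A2 at 72 h was called there (adjusted p = 0.0142), 1 of 7 alternatives that called it. Read depth is unknown, so no counting error was given, and low genes such as SHMT1 were not tested. The search of promoters for an ATF response element was not run.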

Other observations

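Ratios of FPKM between neighbours in a pathway do not change when a whole library is rescaled. The pairs were chosen after the values had been seen, so they are a description with no test. MTHFD2 over SHMT2, consecutive enzymes of mitochondrial one-carbon metabolism, was 0.861 to 0.924 in the 0 h libraries, 0.306 to 0.357 at 48 h and 0.351 to 0.464 at 72 h. MTHFD2 over its cytosolic relative MTHFD1 was 1.46 to 1.47 at 0 h, 0.935 to 1.09 at 48 h and 1.121 to 1.16 at 72 h. In both ratios all controls lay above all insulin libraries.

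PHGDH over PSAT1, the first and second steps of serine synthesis, was 0.532 to 0.556 at 0 h, 0.829 to 0.914 at 48 h and 0.702 to 0.816 at 72 h, and the 3 groups did not overlap. SLC7A5 over its heavy chain SLC3A2 was 0.908 to 1.03 at 0 h, 0.704 to 0.817 at 48 h and 0.697 to 0.734 at 72 h. SLC38A2 over its neighbour SLC38A1 was 8.72 to 10.1 at 0 h, 12.9 to 18.8 at 48 h and 9.10 to 12.8 at 72 h, so that only the 48 h libraries stood clear of the controls.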
